A study of Mus musculus with 8 samples.

Results

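Aminoacyl-tRNA synthetases are the enzymes that join each amino acid to its tRNA. This reaction, called charging, supplies the ribosome with its substrates. Mammalian cells hold a set for the cytosol and another for mitochondria. Both sets are encoded by nuclear genes. Most mitochondrial enzymes have a gene of their own whose symbol ends in 2, whereas Gars and Kars each encode both the cytosolic and the mitochondrial enzyme. Eprs encodes a fused enzyme for glutamate and proline, and Farsa and Farsb encode the subunits of the cytosolic phenylalanine enzyme. Several cytosolic enzymes are held together with scaffold proteins in the multisynthetase complex. Uncharged tRNA activates the kinase Gcn2, whose phosphorylation of eIF2α favours translation of the transcription factor ATF4. Arsenite is known to raise eIF2α phosphorylation through a related kinase, and many cytosolic synthetase genes are known ATF4 targets.

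The genes were chosen by symbol, as 20 cytosolic and 16 mitochondrial synthetases, and all 36 were found among the 10690 genes listed in at least 1 deposited table. The cells were NIH3T3, an established mouse fibroblast line, under 4 conditions. NT cells were not treated, AS cells were kept in 250 µM sodium arsenite for 1 h, and RC4 and RC8 cells had the same exposure, were washed and were then returned to medium without arsenite for a recovery of 4 h or 8 h. Each condition had 1 library of QuantSeq FWD, an oligo(dT)-primed method whose reads start upstream of the poly(A) site (PAS). There are no replicates, so no difference between conditions has a replicate check and no P value is given.

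Each library held 22.4 M to 23.0 M reads on listed genes. Levels are in RPM, the reads of a gene per 1000000 reads on listed genes. The median gene had nearly the same RPM in AS and RC8 as in NT, with log2 ratios of -0.04 and 0.01, but was lower in RC4 with a log2 ratio of -0.30. Changes are therefore given as log2 ratios over NT relative to the median gene of the same comparison, with 95% exact intervals that cover counting error only. A gene was taken to have risen or fallen when its change was at least 1.5-fold on this scale. In libraries made from whole cultures, a lower share of reads cannot be told apart from fewer cells that carry the RNA or from less RNA per cell. NT was the same library in all 3 comparisons, so their values are not independent of each other. RPM values are not divided by transcript length, and levels are compared within a gene only. NT levels are quoted from the table that holds AS. NT read numbers of a gene differed slightly between tables in some genes, for example 3989 and 3899 reads for Farsa, and each ratio used the NT reads of its own table. All 6 fibroblast markers on the list (Col1a1, Col1a2, Col3a1, Vim, Pdgfrb and Thy1) were listed, with a summed level of 2295 to 3622 RPM across the libraries, and none of the 4 epithelial, 3 endothelial and 3 leukocyte markers was listed. Of 7 listed genes known to respond to arsenite, 6 rose in RC4, among them the heme oxygenase gene Hmox1 by a log2 ratio of 5.31 and the Hsp70 gene Hspa1b by 6.11.

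All 20 cytosolic genes were listed in every table. The 16 mitochondrial genes were listed in the AS and RC8 tables, but only 11 of them in the RC4 table, where Aars2, Pars2, Rars2, Sars2 and Vars2 have no value. No gene in the tables has fewer than 50 reads in a library. The cytosolic genes had 679 to 10509 reads in NT and the mitochondrial genes 146 to 1084, so the mitochondrial ratios have the wider counting intervals.

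ATF4 acts through a composite site shared with C/EBP proteins, whose core is written TGATGNAA. This core was searched on both strands in RefSeq promoter windows (GRCm38.p6, from 250 bases before to 50 after each start). A window was given for 13 of the 20 cytosolic genes, and 5 of these held the core, namely Aars, Gars, Iars, Tars and Yars. None of the 14 mitochondrial genes with a window held it. For scale, it was present in 3.97% of all 32851 windows. Of 26 genes with a window on a list of known ATF4 targets that are not synthetases, 8 held it. A gene counted when any of its windows held the core, so shares of genes and of windows are unlike measures. No window was given for Cars, Hars, Lars, Nars, Rars, Vars, Wars, Hars2 and Pars2. A match of letters is a description and does not show binding. A matched stretch near the start is shown for each of these 5 cytosolic genes. Their RC4 changes were all above 0. This was so for 15 of all 20 cytosolic genes. The stretches are written on the strand of the gene, with the core, or its reverse complement, in capitals.

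Aars, 10 bases downstream of the start (chr8:111033840-111033869, plus strand): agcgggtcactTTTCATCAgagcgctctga
Gars, 30 bases upstream of the start (chr6:55037960-55037989, plus strand): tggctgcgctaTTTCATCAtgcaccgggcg
Iars, 8 bases downstream of the start (chr13:49682126-49682155, plus strand): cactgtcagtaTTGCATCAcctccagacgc
Tars, 15 bases upstream of the start (chr15:11399655-11399684, minus strand): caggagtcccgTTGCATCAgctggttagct
Yars, 4 bases downstream of the start (chr4:129189895-129189924, plus strand): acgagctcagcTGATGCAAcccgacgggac

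In AS, at the end of the exposure, the cytosolic genes stayed near the median gene. None of the 20 rose and none fell by 1.5-fold, where 2.07% of all genes rose and 10.2% fell. Their changes ran from -0.14 for Eprs to 0.20 for Farsb, with a median of 0.06 (95% order-statistic interval 0.03 to 0.12). The middle 50% of all genes in this comparison lay between -0.25 and 0.16.

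The mitochondrial genes had a median change of -0.07 in AS (-0.23 to 0.09), and 1 of 16 passed 1.5-fold. Fars2, the mitochondrial phenylalanine enzyme, had 11.1, 16.3, 7.29 and 15.0 RPM in NT, AS, RC4 and RC8. Its change in AS was 0.59 (0.36 to 0.83), which lies just past the threshold. Iars2, the mitochondrial isoleucine enzyme, had a change of -0.58 (-0.72 to -0.44) and lay just short of it. AS was the highest of the 4 libraries for Fars2, whereas Iars2 was highest in NT.

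In RC4, cytosolic and mitochondrial genes moved apart. At this time, 10 of 20 cytosolic genes had risen and 1 had fallen, where 15.0% of all genes rose and 17.4% fell. Their median change was 0.59 (0.03 to 1.03), above the middle 50% of all genes, which lay between -0.41 and 0.37. Of the 11 mitochondrial genes listed, none had risen and 8 had fallen, with a median of -0.64 (-1.03 to 0.00). The cytosolic median was 1.23 above the mitochondrial one in RC4, compared with 0.13 in AS and 0.29 in RC8. The RC4 difference covers 11 mitochondrial genes, and those of AS and RC8 cover 16. Over genes in all 3 tables, the differences were 1.23 in RC4, 0.12 in AS and 0.33 in RC8. These medians are descriptions over genes, which are not replicates.

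The compartments also differed in depth, so the same change was read over all genes by depth. Of the mitochondrial genes listed in RC4, 10 had under 500 reads in NT. All 3577 genes of that depth had a median change of -0.02 in RC4, and 18.7% of them fell. Of the cytosolic genes, 12 had 2000 reads or more in NT, where the 2339 genes of that depth had a median of 0.16 and 15.0% rose.

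**Figure D1:**
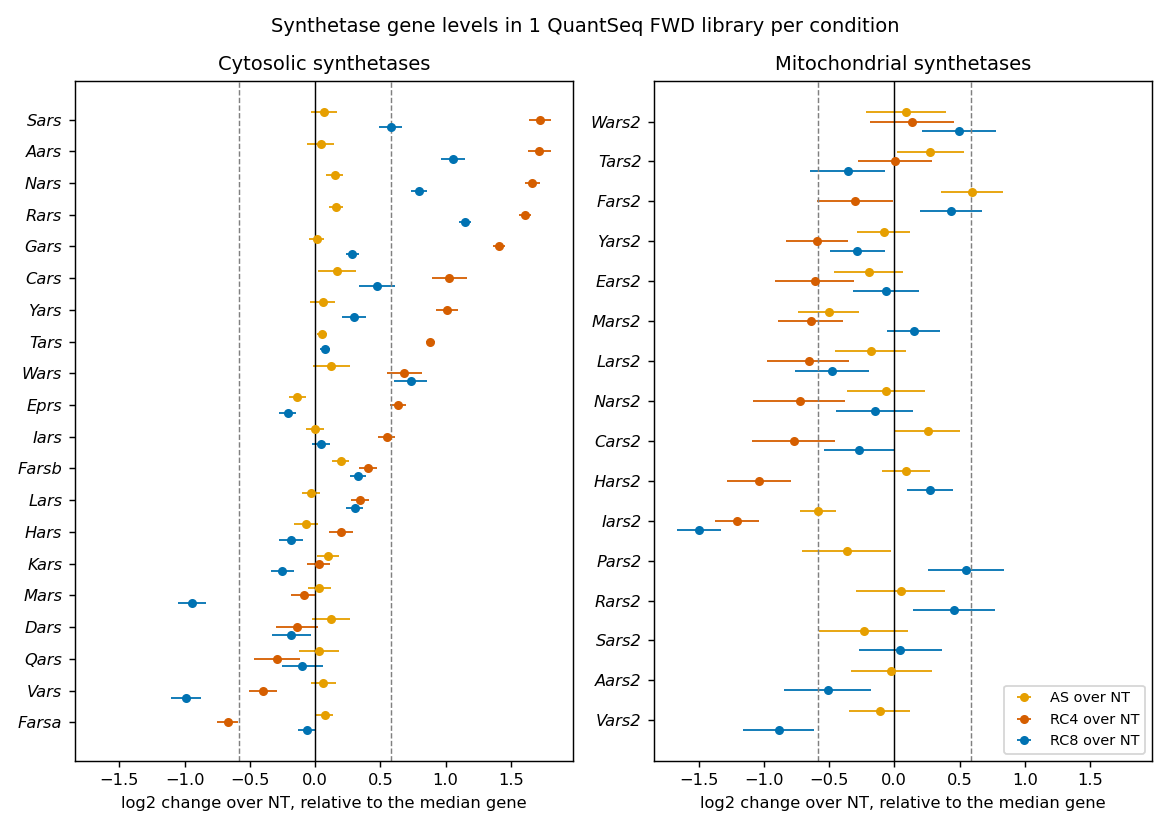
Log2 change of RPM over NT relative to the median gene (x axis) for each cytosolic (left) and mitochondrial (right) synthetase gene in AS, RC4 and RC8, 1 library each, with bars for 95% exact counting intervals and dashed lines at 1.5-fold. Cytosolic genes sit near 0 in AS and reach 1.72 in RC4, whereas mitochondrial genes in RC4 lie between -1.20 and 0.14.

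The highest changes in RC4 were in Aars, Sars, Nars and Rars. Aars, the alanine enzyme, had 64.4, 64.5, 172 and 135 RPM in NT, AS, RC4 and RC8. Its change was 1.72 (1.63 to 1.80) in RC4 and 1.06 (0.97 to 1.15) in RC8, or 3.29-fold and 2.08-fold. NT and AS were nearly equal, and both recovery libraries were above them.

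Sars, the serine enzyme, had 73.1, 74.6, 195 and 109 RPM in NT, AS, RC4 and RC8. The change was 1.72 (1.64 to 1.80) in RC4, the same size as that of Aars within counting error. In RC8 it was 0.58 (0.49 to 0.67), just short of 1.5-fold, so the gene had moved back further than Aars.

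Nars, the asparagine enzyme, had 156, 168, 403 and 272 RPM in the same order. It rose by 1.66 (1.61 to 1.72) in RC4 and 0.80 (0.74 to 0.85) in RC8. Rars, the arginine enzyme, had 252, 274, 624 and 561 RPM. Its rise of 1.61 (1.57 to 1.65) in RC4 was followed by 1.15 (1.11 to 1.196) in RC8, the highest RC8 value of the 36 genes. For both genes the recovery libraries were the highest.

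Gars, the glycine enzyme of both compartments, had 235, 230.0, 507 and 287 RPM in NT, AS, RC4 and RC8. Its change was 1.41 (1.36 to 1.46) in RC4 and 0.29 (0.23 to 0.34) in RC8. Kars, the other gene that serves both compartments, did not pass 1.5-fold in any library, with changes of 0.10, 0.03 and -0.25 in AS, RC4 and RC8.

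The other 5 rises in RC4 were smaller. Cars, the cysteine enzyme, had 32.1, 35.1, 53.3 and 44.7 RPM in NT, AS, RC4 and RC8, with a change of 1.03 (0.90 to 1.16) in RC4. Yars, the tyrosine enzyme, had 78.6, 79.7, 129 and 97.1 RPM and a change of 1.01 (0.93 to 1.099). RC4 was the highest library for both genes, and RC8 lay between RC4 and NT.

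Tars, the threonine enzyme, had 465, 469.5, 697 and 492 RPM, with a change of 0.88 (0.85 to 0.92) in RC4 and 0.07 in RC8. Wars, the tryptophan enzyme, had 35.3, 37.4, 46.1 and 58.8 RPM, with changes of 0.69 (0.55 to 0.82) in RC4 and 0.73 (0.60 to 0.86) in RC8. Wars was the only one of the 10 genes for which RC8 was the highest library. Eprs, the fused glutamate and proline enzyme, had 177, 157, 224 and 154 RPM, with a change of 0.64 (0.58 to 0.70) in RC4.

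These last 3 rises depended on scaling. On RPM without reference to the median gene, the RC4 changes of Tars, Wars and Eprs were 0.58, 0.38 and 0.33, under 1.5-fold, and 7 of 20 cytosolic genes rose and 3 fell in place of 10 and 1. The other 7 genes passed on either scale.

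The phenylalanine enzyme showed unequal changes in its subunits. Farsa, the catalytic α subunit, had 177, 181, 88.1 and 166 RPM in NT, AS, RC4 and RC8, and RC4 was the lowest library. Its change of -0.67 (-0.75 to -0.59) in RC4 made it the only cytosolic gene that fell. Farsb, the β subunit, had a change of 0.40 (0.34 to 0.47) in RC4, and the counting intervals of the subunits do not overlap. In RC8 the values were -0.06 for Farsa and 0.33 for Farsb.

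Mars and Vars were low in RC8 without having passed 1.5-fold relative to the median gene in RC4. Mars, the methionine enzyme, had 91.5, 91.0, 70.0 and 47.7 RPM in NT, AS, RC4 and RC8. Its change was -0.09 (-0.18 to 0.01) in RC4 and -0.95 (-1.05 to -0.84) in RC8. Vars, the valine enzyme, had 79.9, 81.2, 49.3 and 40.5 RPM, with changes of -0.40 (-0.51 to -0.29) and -0.99 (-1.10 to -0.87). Without reference to the median gene, the RC4 change of Vars was -0.70, past 1.5-fold. For both genes the order of the libraries ran downwards from NT or AS through RC4 to RC8.

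The remaining 7 cytosolic genes (Dars, Farsb, Hars, Iars, Kars, Lars and Qars) did not pass 1.5-fold in any comparison. Iars, for isoleucine, came closest in RC4 at 0.55 (0.48 to 0.62), and Qars, for glutamine, was the lowest of them at -0.29 (-0.46 to -0.12). Of the genes whose promoter window held the ATF4 core, only Iars was thus short of 1.5-fold in RC4 relative to the median gene. The 8 cytosolic genes with a window that lacked it had RC4 changes of 1.72 (Sars), 0.64 (Eprs), 0.40 (Farsb), 0.03 (Kars), -0.09 (Mars), -0.14 (Dars), -0.29 (Qars) and -0.67 (Farsa). Among cytosolic genes without a window, Cars, Nars, Rars and Wars rose in RC4, and Hars, Lars and Vars did not. Of all genes, 15.0% rose in RC4. On RPM without reference to the median gene, Tars was also short of 1.5-fold, at 0.58. With PASs of 3′-most exons only, Iars passed, at 0.60.

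**Figure D2:**
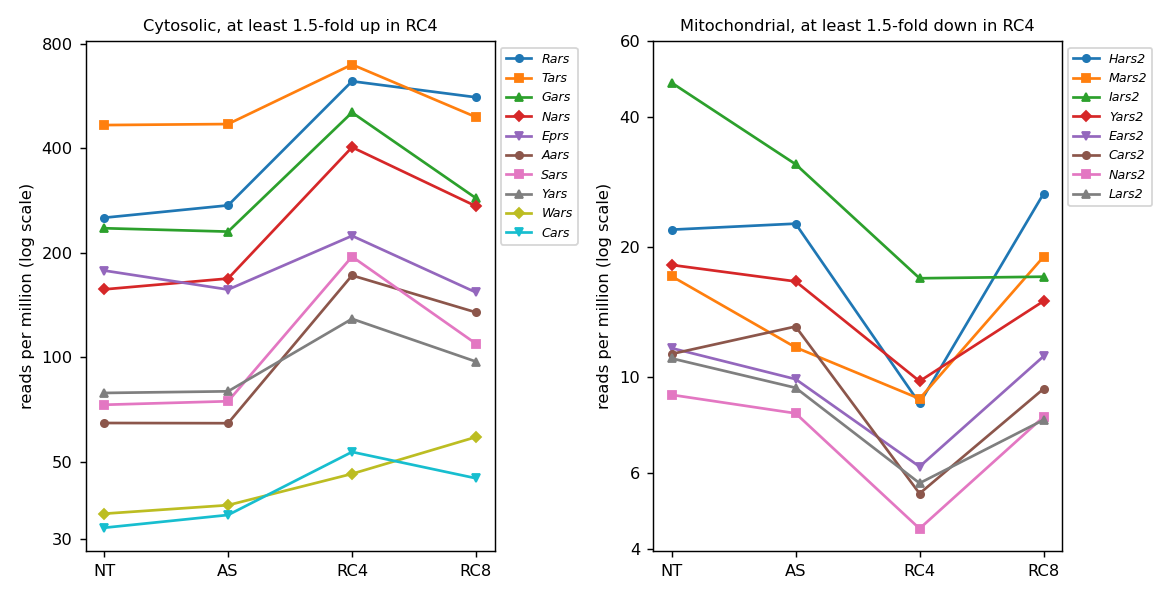
RPM on a log scale (y axis) in the NT, AS, RC4 and RC8 libraries for the 10 cytosolic genes that rose (left) and the 8 mitochondrial genes that fell (right) by at least 1.5-fold in RC4 relative to the median gene, 1 point per library. Lines join libraries for reading only. RC4 is the highest library for 9 of the 10 cytosolic genes and the lowest for all 8 mitochondrial genes.

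The cytosolic genes were also counted by membership of the multisynthetase complex. Of the 8 genes whose enzymes sit in the complex (Dars, Eprs, Iars, Kars, Lars, Mars, Qars and Rars), 2 rose in RC4 (Rars and Eprs) and the median change was 0.19. Of the 12 genes outside it, 8 rose and 1 fell, with a median of 0.95. Over all genes, 15.0% rose and 17.4% fell in RC4. The order-statistic intervals of the medians, -0.29 to 1.61 and 0.20 to 1.66, overlap widely, and the difference between the groups was not tested. On RPM without reference to the median gene, 1 of 8 and 6 of 12 rose. In RC8, 1 of 8 and 3 of 12 had risen, beside 11.1% of all genes. The scaffold genes Aimp1 and Eef1e1 had RC4 changes of -0.01 and 0.02, and the third scaffold gene, Aimp2, fell by 0.67 on the log2 scale. The split by catalytic fold was even. In RC4, 5 of 10 class I genes rose and none fell (median 0.59), and 5 of 10 class II genes rose and 1 fell (median 0.64). The fused Eprs, which rose, was counted in class I only.

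**Figure D3:**
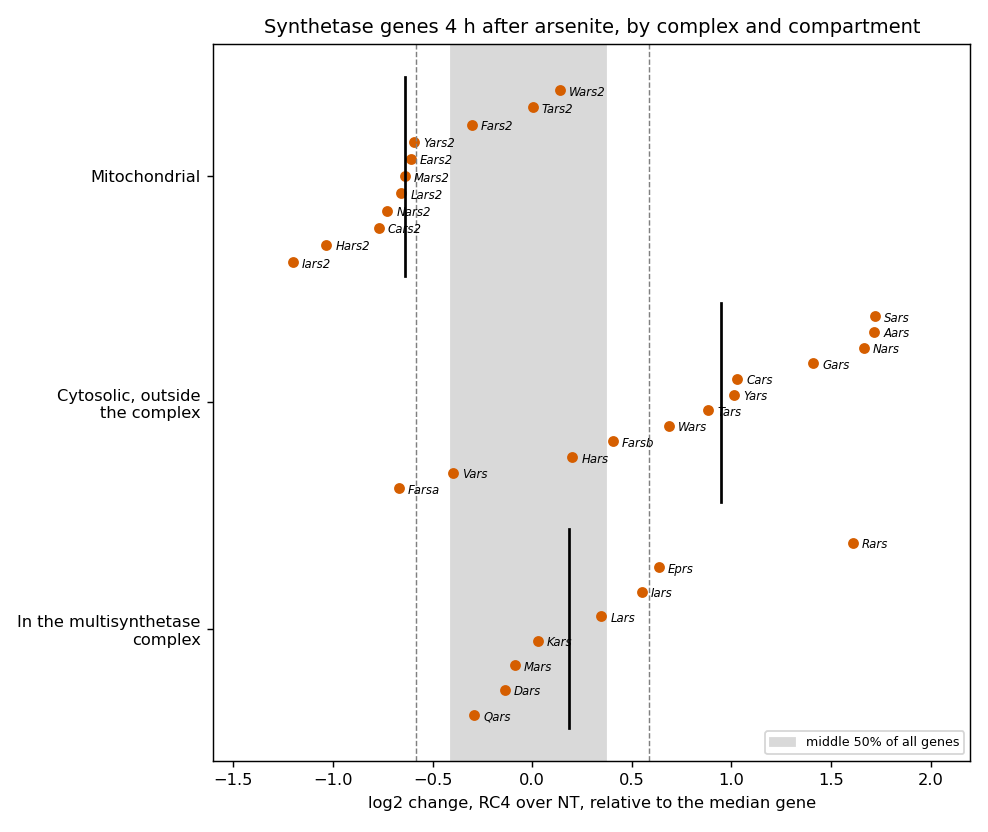
Log2 change of RPM in RC4 over NT relative to the median gene (x axis) for each synthetase gene, grouped by membership of the multisynthetase complex and by compartment, 1 point per gene. Black bars are group medians (0.19, 0.95 and -0.64 from bottom to top), the grey band is the middle 50% of all genes (-0.41 to 0.37) and dashed lines mark 1.5-fold.

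In the mitochondrial set, Iars2 and Hars2 had the largest falls in RC4. Iars2 had 48.0, 31.1, 16.9 and 17.1 RPM in NT, AS, RC4 and RC8. Its change was -1.20 (-1.37 to -1.03) in RC4 and -1.50 (-1.67 to -1.33) in RC8, or 2.30-fold and 2.82-fold lower than in NT. Each of the 3 libraries after arsenite was below NT, and RC8 had not moved back.

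Hars2, the mitochondrial histidine enzyme, had 21.9, 22.7, 8.69 and 26.6 RPM in NT, AS, RC4 and RC8. It fell by 1.03 on the log2 scale in RC4 (-1.28 to -0.79) and had a change of 0.27 (0.10 to 0.45) in RC8, so that RC4 alone was low. Hars2 and its cytosolic counterpart Hars are transcribed away from each other, and their annotated 5′ ends overlap by 198 bases in GENCODE vM1. Hars had 90.4, 83.7, 84.4 and 79.8 RPM, and its RC4 change of 0.20 (0.11 to 0.29) did not follow that of Hars2.

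The other 6 falls in RC4 were between 1.51-fold and 1.71-fold. Cars2 (cysteine) had 11.3, 13.1, 5.37 and 9.39 RPM in NT, AS, RC4 and RC8, with a change of -0.77 (-1.09 to -0.46) in RC4. Nars2 (asparagine) had 8.86, 8.24, 4.46 and 8.09 RPM and a change of -0.73 (-1.08 to -0.38). For both, RC4 was the lowest library and RC8 lay near NT.

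Lars2 (leucine) had 11.02, 9.45, 5.68 and 7.96 RPM, with changes of -0.66 (-0.97 to -0.35) in RC4 and -0.48 (-0.76 to -0.20) in RC8. Mars2 (methionine) had 17.1, 11.7, 8.91 and 19.0 RPM and an RC4 change of -0.64 (-0.89 to -0.39). Lars2 remained below NT in RC8 whereas Mars2 did not.

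Ears2 (glutamate) had 11.6, 9.89, 6.20 and 11.2 RPM, with an RC4 change of -0.61 (-0.91 to -0.31). Yars2 (tyrosine) had 18.2, 16.7, 9.78 and 15.0 RPM and an RC4 change of -0.59 (-0.83 to -0.35). The intervals of these 6 genes reach above the 1.5-fold line. The 8 calls all passed without reference to the median gene as well, where the RC4 changes were lower by 0.30 for every gene.

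In RC4 the 3 mitochondrial genes that did not pass were Fars2 at -0.30, Tars2 (threonine) at 0.00 and Wars2 (tryptophan) at 0.14. In RC8, 2 of 16 mitochondrial genes had fallen and none had risen, where 11.1% of all genes rose and 12.1% fell. The falls were Iars2, given above, and Vars2 (valine), which had 14.1 RPM in NT, 12.7 in AS and 7.65 in RC8. The change of Vars2 in RC8 was -0.89 (-1.16 to -0.62), close to the -0.99 of cytosolic Vars. The median of the 16 genes in RC8 was -0.11 (-0.48 to 0.43), with Pars2 (proline), Wars2 and Rars2 (arginine) highest at 0.55, 0.50 and 0.46.

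In RC8, 4 cytosolic genes remained past 1.5-fold up (Aars, Nars, Rars and Wars) and 2 were down (Mars and Vars), with a median of 0.18 (-0.18 to 0.47). The RC8 and RC4 libraries were also compared directly, so that NT did not enter. In RC8 over RC4, 8 of 20 cytosolic genes fell and 1 rose, where 14.2% of all genes fell and 18.5% rose. The falls were in Sars (-1.10), Gars (-1.08), Nars (-0.83), Mars (-0.81), Eprs (-0.80), Tars (-0.76), Yars (-0.67) and Aars (-0.62), and Farsa rose by 0.65. Of 11 mitochondrial genes in both tables, 5 rose and none fell. These were Hars2 (1.35), Mars2 (0.83), Fars2 (0.78), Nars2 (0.60) and Ears2 (0.59). The median change in RC8 over RC4 was -0.49 for the cytosolic and 0.54 for the mitochondrial genes.

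Genes that work beside the synthetases, such as scaffold proteins, tRNA exporters and editing enzymes, were read from a list of 20 symbols. In AS, none of 16 listed genes passed 1.5-fold. In RC4, 2 of 15 rose and 3 fell, near the 15.0% and 17.4% of all genes that did. The rises were Xpot, the nuclear exporter of tRNA, with 239 RPM in NT and 365 in RC4 and a change of 0.91 (0.86 to 0.96), and Dtd2, a D-aminoacyl-tRNA deacylase, with a change of 0.70. The falls were Aimp2 (-0.67), Pstk, a kinase for selenocysteine tRNA (-0.81), and Qrsl1, a subunit of the mitochondrial enzyme that makes glutaminyl-tRNA (-0.60). In RC8, 1 of 16 rose, Tarsl2 (0.67), another threonine enzyme, and none fell, beside 11.1% and 12.1% of all genes.

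Known ATF4 targets other than synthetases were read from a list of 30 symbols, of which 25 were listed. In RC4, 18 of 25 rose and 1 fell (Cebpb, at -1.77), where 15.0% of all genes rose and 17.4% fell. Their median change was 1.14 (0.62 to 1.57). Asns, the asparagine synthetase that makes the amino acid and not its tRNA ester, had a change of 1.58 in RC4, and the cystine transporter gene Slc7a11 and the pseudokinase gene Trib3 had 5.27 and 2.54. In AS, 3 of 25 rose (Ddit3 by 1.70, Chac1 by 1.46 and Atf4 itself by 0.66), a time at which no cytosolic synthetase gene had. Of all genes, 2.07% rose in AS. In RC8, 6 rose and 4 fell, beside 11.1% and 12.1% of all genes. The part of ATF4 in the synthetase changes was not tested.

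The reads of each gene were assigned to PASs. Of the 36 synthetase genes, 20 had 2 or more PASs in at least 1 table. A gene was taken to have changed its PAS use when the fraction of reads at any of its PASs differed from NT by at least 10 percentage points. In AS this held for 3 of 17 synthetase genes with 2 or more PASs (Ears2, Mars2 and Wars2), where 15.3% of all such genes did. In RC4 it held for 5 of 18 (Ears2, Iars2, Mars2, Nars and Wars2), where 29.1% of all such genes did, and in RC8 for 4 of 20 (Ears2, Iars2, Vars2 and Wars2), where the share was 27.0%. Over all members the counts were near or below these shares. The changes lay mostly in mitochondrial genes, with 4 of 6 in RC4 and 4 of 7 in RC8, compared with 1 of 12 and 0 of 13 cytosolic genes. The mitochondrial genes had fewer reads behind each fraction. NT fractions could also differ between comparisons, and each change used those of its own comparison. For Vars, the PAS of the 3′-most exon took 51.7% of NT reads in the AS comparison and 30.5% in those of RC4 and RC8. The internal-exon PAS listed beside it differed in position too. This gap within 1 library is wider than the threshold of 10 percentage points.

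The windows below hold the last 30 bases before the PASs of the 3 genes with a single pair of PASs that changed, read from mm9 on the strand of the gene, with a hexamer AATAAA or ATTAAA in capitals where 1 lies in the window. Such a hexamer is the signal bound by the cleavage machinery.

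Iars2, distal PAS (chr1:187110517-187110546, minus strand): tctgggaaactcccagcatatgatggtgaa
Iars2, proximal PAS (chr1:187110619-187110648, minus strand): acactgaatatggttactttcaatgtggca
Wars2, proximal PAS (chr3:99022252-99022281, plus strand): tgtgataAATAAAggagagaaccaactcct
Wars2, distal PAS (chr3:99022756-99022785, plus strand): gtatttcttttaaagatcttttttactttc
Ears2, distal PAS (chr7:129182170-129182199, minus strand): ttggaATTAAAgccaggtcttgtggaagaa
Ears2, proximal PAS (chr7:129182335-129182364, minus strand): tattttttttaaagactttttaaaaatgtg

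Iars2 combined the largest fall in level with the largest change in PAS use. Its distal PAS took 22.4% of reads in NT (95% Wilson interval 20.03% to 24.99%) and 19.6% in AS. In RC4 it took 48.9% (190 of 388 reads), and in RC8 61.2% (241 of 393 reads). Neither PAS has either hexamer within 30 bases. NT and AS had like fractions, and both recovery libraries were above them by more than counting error. The distal PAS had 10.8 RPM in NT, 8.29 in RC4 and 10.5 in RC8, whereas the proximal PAS had 37.2, 8.66 and 6.63. In AS both PASs were below NT, at 6.10 RPM for the distal and 25.04 for the proximal PAS. In RC4 and RC8 the proximal PAS was lower still, and the distal PAS was near its NT level. The PASs are 102 bases apart, and reads start upstream of both, so the split between them rests on the authors' model of read distance.

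Wars2 used its proximal PAS, the one that carries AATAAA, for 47.0%, 68.6%, 62.9% and 60.3% of reads in NT, AS, RC4 and RC8. All 3 libraries after arsenite were above NT. Ears2 used its distal PAS, the one that carries ATTAAA, for 41.4%, 60.4%, 29.7% and 63.9% of reads in the same order. Ears2 was thus higher than NT in AS and RC8 and lower in RC4, where 142 reads stood behind the value.

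Vars2 had 3 PASs in the same exon. The proximal one took 25.6% of reads in NT, 35.2% in AS and 54.0% in RC8, and the distal one 55.4%, 53.2% and 39.8%. Mars2 had its first PAS at the end of the annotated gene and 2 more at 3984 and 8577 bases beyond it. The first took 42.0% of Mars2 reads in NT and 65.8% in AS, and in RC4 a nearby PAS in its place took 58.8%, compared with 42.0% in NT. With the 2 far PASs left out, the RC4 change in the level of Mars2 was -0.10 in place of -0.64, so most of its fall was in reads assigned to the far PASs.

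Nars was the only cytosolic gene that changed its PAS use by this measure, and only in RC4. Of its 4 PASs, the most distal took 44.7% of reads in NT (43.1% to 46.4%) and 31.9% in RC4 (31.0% to 32.9%), and the most proximal of the 3′-most exon took 37.1% and 48.3%. In RC8 the values were 47.4% and 40.5%, back near NT. All 4 PASs of Nars had higher RPM in RC4 than in NT, so its rise in level did not rest on 1 of them.

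**Figure D4:**
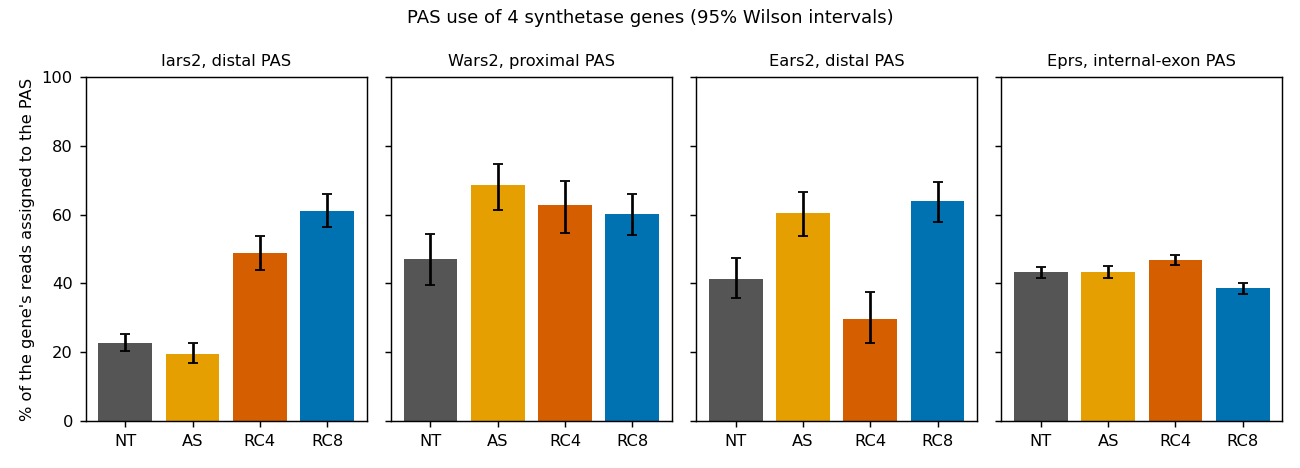
Percentage of a gene's reads assigned to 1 of its PASs (y axis) in the NT, AS, RC4 and RC8 libraries for Iars2, Wars2, Ears2 and Eprs, 1 library per bar, with 95% Wilson intervals as error bars. The Iars2 bars stand at 22.6% in NT (the RC4 table), 48.9% in RC4 and 61.2% in RC8, whereas the Eprs bars stay between 38.6% and 46.8%.

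Reads were also assigned to PASs inside coding exons of several cytosolic genes. Across the members, 8 genes had a PAS that the files place in an intron or an internal exon, and 7 of these were cytosolic (Eprs, Farsb, Nars, Qars, Sars, Vars and Wars). The internal-exon PASs of Eprs, Nars, Qars, Sars and Vars lie in coding exons of GENCODE vM1. None of the 7 internal-exon PASs had AATAAA or ATTAAA within 40 bases upstream, compared with 25 of 56 PASs of 3′-most exons. No member PAS had a run of 6 A around it, but 1 of the 7 internal-exon PASs had 7 or more A among 10 bases downstream, as did 3 of the 56. Oligo(dT) can prime on A-rich stretches inside an RNA, and the part of such priming in these reads was not tested. The paper states that such priming does not affect its predicted PASs. The reason it gives is that the PAS database used holds only sites mapped by a method without oligo(dT)-made cDNA. The bases around the Eprs PAS are not reported here.

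The Eprs PAS took 43.2%, 43.3%, 46.8% and 38.6% of the gene's reads in NT, AS, RC4 and RC8. The Sars PAS took 40.4%, 42.8%, 47.1% and 32.8%, and the Qars PAS 42.9%, 50%, 34.1% and 52.5% in the same order. For Eprs and Sars the fraction was highest in RC4 and lowest in RC8, whereas for Qars it was lowest in RC4. The main PAS of Farsb lies in what the files call an intron, took 80.8% of its reads in NT and has AATAAA 24 bases upstream, and GENCODE vM1 places it in an untranslated exon of another isoform.

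When levels were computed from PASs of 3′-most exons only, 12 of 20 cytosolic genes rose in RC4, with Farsb (0.68) and Iars (0.60) added to the 10, and Sars (0.74) passed 1.5-fold in RC8. Of the 8 mitochondrial falls in RC4, 5 remained, and Ears2 (-0.56), Yars2 (-0.51) and Mars2 (-0.10) no longer passed.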

How the data were processed

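The authors trimmed reads, aligned them to mm9 with STAR 2.5.2a (version per the submitters' processing notes) and ran MAAPER with PolyA_DB PASs. The deposited counts are unnormalized reads of each gene. Every library has 2 count columns, which were added here. What the 2 columns stand for is not given in the sources used here, and in the members they differed by up to 44.8%, so an interval covers their sum only. The deposited fraction of a PAS is its share of the reads of its gene. Deposited P values and scores of the authors' comparisons (RLD, RED) were not used. QuantSeq REV libraries were not analysed here, and a few genes and sequences are not reported here.

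Counts were divided by the reads on all listed genes of the library and table to give RPM. The log2 ratio over NT minus that of the median gene was the change, with a Clopper-Pearson interval at 95% given both counts. Fractions were given Wilson intervals, with each deposited fraction multiplied by the gene's reads, and medians order-statistic intervals. The intervals of genes and fractions cover counting error only, and reads carried no molecular identifiers, so several may stem from 1 molecule. Those of medians describe the spread over genes, which are not replicates. With 1 library per condition no test was made, and 1.5-fold or 10 percentage points stood for a call. Reads that align to more than 1 place may have been counted, so genes with near-identical copies are uncertain.

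The members and lists were chosen with earlier results of these data known. RPM in every library were given for each member past 1.5-fold in any comparison, and each member past 10 percentage points was named with its PASs. Alternatives were scaling without the median gene, a minimum of 200 reads, each count column alone, genes in all 3 tables, other thresholds and, chosen after seeing the data, PASs of 3′-most exons only. The reading by depth was also added after seeing the data. Analysis used Python 3.11.15, pandas 2.3.3, numpy 2.4.6, scipy 1.17.1, statsmodels 0.14.6 and matplotlib 3.10.9, and the code was tested on simulated data. Promoter windows were RefSeq's on GRCm38.p6, and PAS windows and gene models were mm9 and GENCODE vM1.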

Additional observations from a re-analysis of the deposited data

How the results depend on the processing

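Of 153 values recomputed under alternatives, 124 stayed near the value reported and 29 moved. A median was near when it lay within the order-statistic interval of the reported one, and a count when within 1.5 times of it. By this rule the cytosolic RC4 median without reference to the median gene, 0.29 in place of 0.59, was near. A change of sign was looked for only in medians and their differences of at least 1.5-fold, and 0 were found. Counts cannot change sign. The count of cytosolic rises in RC4 stayed within 1.5 times of 10 under every alternative tried. The cytosolic minus mitochondrial median in RC4 stayed between 1.23 and 1.24 under the alternatives run for it. Of these, genes in all 3 tables kept the same 20 and 11 members, so that value could not differ. A minimum of 200 reads left 3 mitochondrial genes. The difference was not computed with PASs of 3′-most exons only, where the cytosolic and mitochondrial medians were 0.64 and -0.56. No paired analysis was possible because each condition had 1 library, and no library was left out, since none would remain for its condition.

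On RPM without reference to the median gene, the cytosolic median in AS was 0.021, 3 cytosolic genes fell in RC4 (Farsa, Qars and Vars), and in AS no mitochondrial gene rose (0) and 1 fell. With a lower fold threshold (0.32 on the log2 scale), 2 cytosolic genes fell in RC4 and 7 rose in RC8, while 3 mitochondrial genes fell in AS, 5 fell in RC8 and 4 rose in RC8. With a 2-fold threshold, 0 cytosolic genes fell in RC4 or RC8 and 2 rose in RC8, while 0 mitochondrial genes rose in AS, 2 fell in RC4 and 1 fell in RC8. With at least 200 reads in both libraries, 1 of 10 mitochondrial genes fell in AS, 3 of 3 fell in RC4 and 1 of 7 fell in RC8. This minimum also removes genes because their reads fell. With the first count column alone, 0 mitochondrial genes rose and 1 fell in AS, and 2 rose in RC8. Over genes in all 3 tables, 1 of 11 mitochondrial genes fell in RC8, since Vars2 has no value in RC4. With PASs of 3′-most exons only, 5 mitochondrial genes fell in RC4.

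With a threshold of 5 percentage points, 6 members changed PAS use in AS. The counts for RC4 and RC8 were 8 and 11. With 20 percentage points it changed in 1 member in RC4 (Iars2). With at least 200 reads it changed in 3 members in RC4 and 2 in RC8. Where no cause is named, the cause of a difference was not tested.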
